A study of Mus musculus with 2 samples.

Results

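CD8 T cells that carried transcripts of granzymes D, E, F and G were found in MB49 tumours of both sexes and numbered 165 cells, 89 (female) and 76 (male), of 7366 barcodes in all. MB49 is a transplanted mouse bladder carcinoma line of male origin. A cell was a member when it held at least 2 unique molecular identifiers (UMIs, the counted transcript copies) of Cd8a and Cd8b1 and at least 10 of Gzmd, Gzme, Gzmf and Gzmg together. It also had to hold no UMI of Foxp3, Cd4, Lyz2 or Mki67 and at most 40000 UMIs, after barcodes with under 500 genes or over 10% mitochondrial UMIs were removed. The comparison cells, 651 (female) and 472 (male), met the same filters, had no UMI of these 4 granzymes and held at least 1 UMI of Havcr2, the gene of the inhibitory receptor TIM-3.

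The female and male groups were C57BL/6J mice aged 12 to 14 weeks that carried MB49 tumours for 14 days, and they differ in the labels only by sex. Each sex is 1 library of a droplet kit that reads the 5′ end of transcripts, the number of mice behind a library is not given, and 10000 to 20000 cells were loaded for 3658 female and 3708 male barcodes in the files. Both libraries were labelled as sorted viable CD4+ T cells, yet 1629 female and 1488 male barcodes passed the CD8 filters above with no Cd4 UMI. With 1 library per sex nothing was tested, intervals are 95% intervals that cover counting error only, and values from both libraries are given side by side. Members held 1516432 UMIs (female) and 1246573 (male), with medians of 16609 and 15434.5 UMIs per cell, against 10398 in female and 9291.5 in male comparison cells.

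Granzymes are serine proteases that killer lymphocytes store in granules and deliver into target cells through pores made by perforin. Mice have a cluster of granzyme genes on chromosome 14 that includes Gzmb, the best studied inducer of target cell death, and the closely related Gzmc, Gzmd, Gzme, Gzmf, Gzmg and Gzmn. The D to G members are rodent genes known from strongly stimulated killer cells, and what they cut is less well understood. In T cells of tumours, chronic stimulation yields cells that keep inhibitory receptors such as PD-1 and TIM-3 while they retain granzyme B and perforin, and Tcf7 marks the less differentiated cells that replenish them.

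The 7 genes lie side by side on chromosome 14 on the minus strand of GRCm38 (GENCODE M21 gene models). In ascending coordinates the order is Gzme at chr14:56117626-56120625, Gzmd at chr14:56129556-56132608, Gzmg at chr14:56156582-56159579, Gzmn at chr14:56165797-56174599, Gzmf at chr14:56205263-56211417, Gzmc at chr14:56231441-56234656 and Gzmb at chr14:56258838-56262260. The 250 bases before the RefSeq start of the 4 genes of the rule, of Gzmc, the gene with the highest ratio beside them, and of Gzmb, which most T cells here carried, are printed because these genes were counted together in the same cells. They come from RefSeq on GRCm38.p6, minus strand, 5′ to 3′, and capitals mark the letters TGTGGT on either strand, the core bound by Runx factors, and TGANTCA, the core bound by AP-1 factors.
Gzmd, chr14:56132594-56132843: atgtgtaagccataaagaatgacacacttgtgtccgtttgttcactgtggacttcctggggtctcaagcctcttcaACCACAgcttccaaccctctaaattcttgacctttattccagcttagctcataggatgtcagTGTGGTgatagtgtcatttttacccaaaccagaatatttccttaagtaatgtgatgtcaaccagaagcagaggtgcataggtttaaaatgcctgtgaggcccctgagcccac
Gzme, chr14:56120626-56120875: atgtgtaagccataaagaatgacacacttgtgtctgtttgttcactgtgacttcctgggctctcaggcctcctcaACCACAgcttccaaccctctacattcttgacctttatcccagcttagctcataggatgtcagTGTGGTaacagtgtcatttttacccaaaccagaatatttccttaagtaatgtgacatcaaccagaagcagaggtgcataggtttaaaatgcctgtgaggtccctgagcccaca
Gzmf, chr14:56211408-56211657: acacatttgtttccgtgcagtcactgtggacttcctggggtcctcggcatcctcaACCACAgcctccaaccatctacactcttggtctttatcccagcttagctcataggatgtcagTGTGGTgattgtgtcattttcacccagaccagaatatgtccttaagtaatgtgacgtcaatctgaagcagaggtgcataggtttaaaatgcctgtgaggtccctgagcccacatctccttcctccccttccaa
Gzmg, chr14:56159580-56159829: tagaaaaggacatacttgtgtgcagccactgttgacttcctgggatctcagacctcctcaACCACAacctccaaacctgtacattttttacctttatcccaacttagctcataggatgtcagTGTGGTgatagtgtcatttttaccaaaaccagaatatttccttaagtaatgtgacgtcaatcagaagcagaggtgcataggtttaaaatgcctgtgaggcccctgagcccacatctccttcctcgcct
Gzmc, chr14:56234658-56234907: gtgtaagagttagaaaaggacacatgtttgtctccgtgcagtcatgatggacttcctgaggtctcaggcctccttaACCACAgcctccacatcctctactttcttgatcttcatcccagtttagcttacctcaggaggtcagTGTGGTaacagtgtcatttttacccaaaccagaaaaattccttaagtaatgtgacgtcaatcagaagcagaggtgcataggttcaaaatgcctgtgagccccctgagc
Gzmb, chr14:56262335-56262584: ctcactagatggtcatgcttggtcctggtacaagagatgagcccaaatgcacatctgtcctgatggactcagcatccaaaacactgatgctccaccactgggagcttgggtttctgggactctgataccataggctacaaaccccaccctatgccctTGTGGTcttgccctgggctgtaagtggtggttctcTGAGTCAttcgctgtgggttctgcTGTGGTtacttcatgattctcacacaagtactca

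The upstream sequences of Gzmc to Gzmg were near copies of each other. Gzmd and Gzme were identical at 95.6% of 249 aligned bases, Gzmd and Gzmg at 89.3% of 234, Gzmd and Gzmf at 88.2% of 229 and Gzmc and Gzmd at 84.4% of 244. Each of these 5 windows held 2 TGTGGT matches, which lay 62 bases apart in Gzmd, Gzme, Gzmf and Gzmg and 66 bases apart in Gzmc. The windows share ancestry, so the 5 are not independent. Gzmb held 2 such matches 59 bases apart and 1 TGANTCA match, and the Gzmn window held neither. Among 32536 RefSeq windows of the same length, 14.0% held at least 1 TGTGGT and 1.27% at least 2, while TGANTCA was in 6.73%. The other 4 cores, searched on both strands, had no match in the 6 printed windows: TCACACC (T-box, in 3.33% of all windows), TTCNNNGAA (STAT, 7.04%), GGAAAA (NFAT, 20.4%) and TATAAA (core promoter element, 12.3%).

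Because the genes are so alike, reads could in principle be credited to the wrong one. Over whole transcripts Gzmd and Gzme were 94.8% identical, Gzmd and Gzmg 90.5%, Gzmd and Gzmf 87.6%, and Gzmb and Gzmd 71.8%. Of the 411 stretches of 90 bases in the first 500 bases of a transcript, 12 of Gzmd (2.92%), 1 of Gzme and 13 of Gzmg (3.16%) were also found in another of these genes. None of the stretches of Gzmf, Gzmc or Gzmb was shared. Read errors were not considered in this count, and the read length is not given in the sources used here.

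Gzmf was the most counted of the 4 granzymes in both libraries. These values chose the members and are given as a description. Gzmf stood at 2210 CPM (UMIs scaled to 1000000 UMIs of the summed cells) in female members and 3250 CPM in male members. Gzmd stood at 985 CPM in female and 1718 CPM in male members, and Gzme at 1010 and 1336 CPM. Gzmg stood at 38.9 CPM in female members and at 402 CPM in male members, where 3 cells held 85.6% of its UMIs. The 4 together made up 0.424% of the UMIs of female members and 0.671% of those of male members.

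The sum per cell spanned 10 to 425 UMIs with a median of 43 in female members, and 10 to 825 with a median of 40 in male members. Just inside the threshold, 12 female and 13 male members had 10 to 14 UMIs, and just outside it 17 female and 13 male CD8 cells had 5 to 9. The top 10 cells held 38.5% of these UMIs (female) and 54.3% (male), so sums over members lean on few cells. The members were 5.46% (4.41 to 6.68) of female and 5.11% (4.04 to 6.35) of male CD8 barcodes, and the intervals overlap.

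Members came in different mixes of Gzmf on the one side and Gzmd with Gzme on the other. Gzmd and Gzme were both present in 63 of 89 female and 48 of 76 male members, both absent in 21 and 16, and only 5 female and 12 male members held exactly 1 of them. Gzmf made up over 90% of the 4 granzymes in 25 female and 21 male members and under 10% in 25 female and 13 male members. Across members, Spearman's rho of the CPM of Gzmd and Gzme was 0.73 (female) and 0.78 (male). For Gzmd and Gzmf it was 0.01 and 0.34, and for Gzme and Gzmf 0.02 and 0.20. These are descriptions over 89 and 76 cells that share library and depth. The rule asks for a sum, so cells low in all 4 genes are missing from them.

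**Figure D1:**
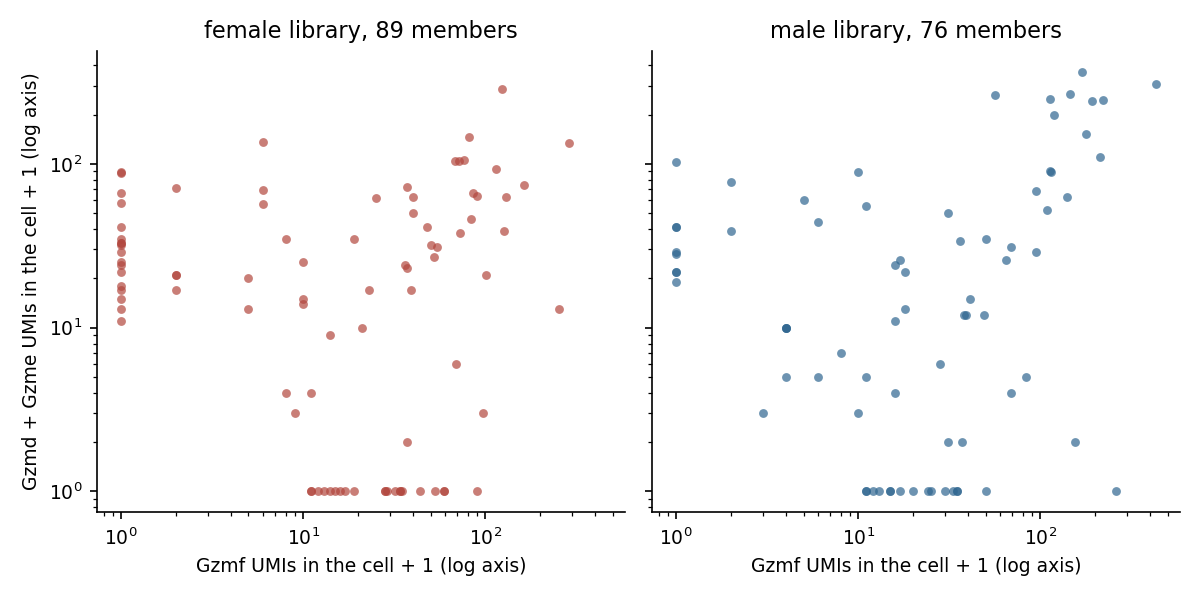
Gzmf UMIs (x axis) against summed Gzmd and Gzme UMIs (y axis) in each member, both plus 1 on log axes, with 1 point per cell, in the female library (left, 89 cells) and the male library (right, 76 cells). Cells along the bottom edge carried Gzmf with no Gzmd or Gzme (21 female and 16 male members), and cells along the left edge carried no Gzmf (18 female and 8 male members).

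The granzyme UMIs were more frequent in CD8 cells than in regulatory-type cells of the same libraries. Regulatory-type cells may transcribe these genes themselves, so their share is not a measure of free RNA alone. At least 1 UMI was found in 11.2% of female and 11.6% of male CD8 barcodes. It was found in 6 of 233 female (2.58%) and 17 of 345 male (4.93%) barcodes that held Foxp3 and no Cd8a or Cd8b1, with median depths of 6426 and 5993 UMIs against 8544 and 7708 in CD8 barcodes. At the threshold of 10 UMIs, 0 of 233 female Foxp3 barcodes qualified, which allows a share of up to 1.29% (3 counts of the 233), and 1 of 345 male ones. Among CD8 barcodes, 9.92% of female and 11.1% of male cells with a Havcr2 UMI reached the threshold, against 1.20% and 1.02% of cells without one, which were shallower (medians of 6675 and 6514.5 UMIs against 11004.5 and 10192.5). Barcodes with at least 20 Krt8 and Krt18 UMIs and no Cd3e, 26 female and 24 male, held 0.714 and 0 CPM of the 4 granzymes. The Foxp3 barcodes above held 4.49 and 22.1 CPM. The libraries shared 16 barcode sequences.

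The filters set aside many other cells with these granzymes. Of the kept barcodes with at least 10 granzyme D to G UMIs, 287 (female) and 292 (male), 162 and 164 held Mki67, 97 and 124 held Foxp3, and 112 and 134 exceeded 40000 UMIs. No doublet caller was run here, and the UMI limit and the marker filters stand in for one. In the male library, 1 member held 142 collagen UMIs, 109 of Sparc and 177 of Crabp1 beside 17 Cd8a and Cd8b1 and 19 granzyme UMIs, and results that rest on it are named below.

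Genes of the T cell receptor complex, which the rule did not use, were carried by all members. The 7 T cell markers other than Cd8a and Cd8b1 summed to 5326 CPM in female and 5351 CPM in male members, against 5153 and 4952 CPM in comparison cells. The rule asked for Cd8 UMIs but not for a balance of the chains, and Cd8b1 made up 48.2% (46.4 to 50.01) of the Cd8 UMIs in female and 48.3% (46.4 to 50.3) in male members, against 50.4% and 53.5% in comparison cells. The 8 natural killer markers summed to 184 and 176 CPM in members, against 167 and 172 CPM in comparison cells, and Ncr1, Klra4 and Klra9 were at 0 UMIs in the members of both libraries. Klre1 held 244 of the 279 female and 185 of the 220 male member UMIs of this list. It stood at 161 against 114 CPM and 148 against 119 CPM, while Eomes, also in the list, was called lower. The 11 macrophage and monocyte markers other than Lyz2, which the rule set to 0, summed to 19.1 and 24.1 CPM in members, against 20.2 and 27.7 CPM in comparison cells, and gamma delta T cell markers to 5.28 and 4.01 against 5.87 and 5.21 CPM. Mast cell and basophil markers summed to 24.4 and 28.9 CPM, against 6.94 and 8.82 CPM, and nearly all of that was Kit, while Cpa3, Mcpt4, Tpsb2, Ms4a2, Fcer1a and Gata2 were at 0. Antigen-presenting cell markers summed to 28.4 and 79.4 CPM, against 34.7 and 58.4 CPM, B cell markers to 2.64 and 0 CPM, against 5.21 and 7.22 CPM, and tumour-like epithelial markers to 0.659 and 0 CPM, against 6.28 and 23.7 CPM. Fibroblast markers summed to 0.659 and 114 CPM, against 2.80 and 36.7 CPM, and the 114 CPM came from the male member with collagen. Xist had 297 UMIs in female and 0 in male members, and Ddx3y 0 in female and 47 in male members.

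Of the 2 adaptor genes proposed as markers of these cells, Fcer1g was called higher in members. Tyrobp was under the limit of 20 CPM in members and comparison cells of both libraries, so it could not be called. Fcer1g encodes the common gamma chain of Fc receptors, which carries an activating motif. It stood at 109 CPM in female members against 16.6 CPM in comparison cells (log2 ratio 2.72, 2.37 to 3.06), and at 57.8 against 13.0 CPM in the male library (2.15, 1.64 to 2.65). Without barcodes holding markers of other cell types these ratios were 1.69 and 3.24. A Fcer1g UMI was found in 25 female and 13 male members, a minority of both. Of its 72 UMIs in male members, 67 lay in the 34 cells with at least 50 granzyme D to G UMIs (112 CPM). The male members with 10 to 19 and 20 to 49 granzyme UMIs stood at 10.1 and 6.62 CPM, from 2 and 3 UMIs, below the 13.0 CPM of comparison cells. Cells thinned to 5055 UMIs gave 20.1% and 13.3% of members with Fcer1g, against 3.5% and 2.8% of comparison cells. Unthinned shares were 28.1% and 17.1%, against 5.22% and 3.81%. Of the Foxp3 barcodes with no Cd8a or Cd8b1, which were shallower, 4.29% and 2.90% carried Fcer1g, also unthinned. Their Fcer1g level was 46.9 CPM (female) and 21.7 CPM (male), above that of comparison cells. Tyrobp, which encodes the adaptor DAP12, stood at 13.8 against 12.0 CPM in the female library (0.20, -0.56 to 0.90) and 16.8 against 5.62 CPM in the male library (1.58, 0.70 to 2.45). It was found in 4 female and 5 male members, with 71.4% and 38.1% of its UMIs in 1 cell. The same Foxp3 barcodes held 38.4 CPM (female) and 19.2 CPM (male) of Tyrobp, above the levels of members.

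To describe the rest of the transcriptome, UMIs were summed over members and over comparison cells of each library. A gene was called higher or lower when its CPM differed at least 2-fold, with an interval bound past a log2 of 0.32, in both libraries. Genes of the rule were left out. Of 5967 genes measured, 29 were higher in members (0.486%) and 46 were lower (0.771%). The contrast is the one that defined the groups, so these are descriptions. Taken by itself, the female library gave 56 genes (0.938%) higher and 93 (1.56%) lower, and the male library 87 (1.46%) and 149 (2.50%). The 29 genes higher in both are 51.8% of the female and 33.3% of the male list. The median log2 ratio over all measured genes was -0.07 (female) and -0.08 (male). Among comparison cells restricted to the depth of members, 26 of the 29 and 30 of the 46 calls were kept. With members and comparison cells thinned to 5055 UMIs each, fewer were kept, 19 of the 29 and 17 of the 46.

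**Figure D2:**
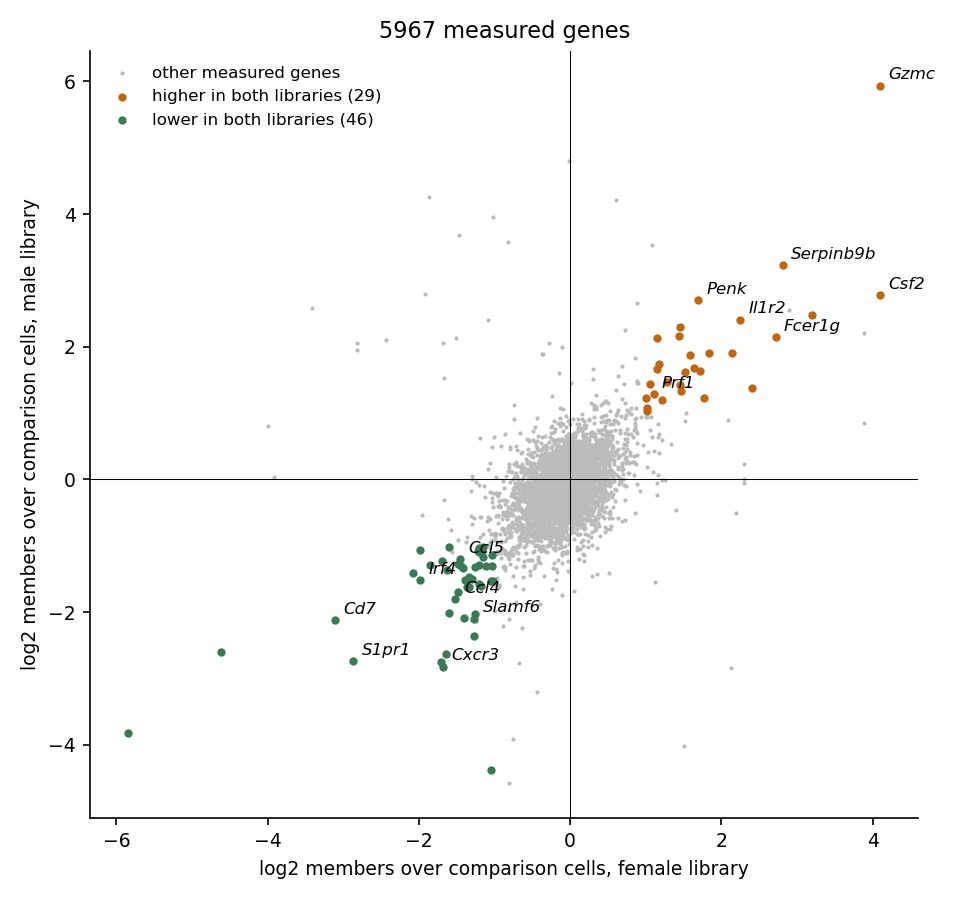
Log2 ratio of members over comparison cells for each measured gene in the female library (x axis) and the male library (y axis), with 1 point per gene; orange points are the 29 genes called higher and green points the 46 called lower in both libraries. Gzmc stands farthest to the upper right, at 4.10 (female) and 5.94 (male).

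Gzmc, the neighbour of Gzmf and Gzmb, led the genes higher in members. It stood at 1087 CPM in female members against 63.3 CPM in comparison cells (log2 4.10, 3.95 to 4.25) and at 1695 against 27.7 CPM in the male library (5.94, 5.69 to 6.20). It was found in 63 female and 49 male members. It was also the gene whose CPM ranked most like the granzyme D to G sum across members, with rho of 0.36 in 89 female and 0.52 in 76 male cells, ahead of Prdx5 at 0.39 and 0.22 and Jdp2 at 0.21 and 0.28. The others by that measure, Ciao2b, Pigp, Urm1, Bnip2 and S100a13, had rho between 0.13 and 0.32 in each library, which is weak in counts this sparse.

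Prf1 was higher too, by less, and Gzmb did not reach the call. Prf1, the pore-forming protein, stood at 934 against 435 CPM in the female library (1.10, 1.01 to 1.19) and 1151 against 471 CPM in the male library (1.29, 1.19 to 1.38). Among cells of at most 20000 UMIs the male ratio of Prf1 was 0.76, under the 2-fold limit. Gzmb stood at 3758 against 2189 CPM in the female library (0.78, 0.74 to 0.82) and 4585 against 2277 CPM in the male library (1.01, 0.96 to 1.06) and was not called. Of the 13 measured genes of the list of other cytotoxic granule genes, Gzmc and Prf1 were higher and none was lower. The list's medians were 0.07 (female) and 0.08 (male), and Nkg7, a granule membrane protein, stood at 3142 against 2986 CPM and 3033 against 2904 CPM.

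Gzmk and Gzma, granzymes encoded on chromosome 13, had ratios below 0 in both libraries and were not called. Gzmk stood at 97.6 CPM in female members against 203 CPM in comparison cells (-1.06, -1.31 to -0.81) and at 128 against 248 CPM in the male library (-0.95, -1.20 to -0.71). Gzma stood at 643 against 1002 CPM in the female library (-0.64, -0.74 to -0.54) and 201 against 946 CPM in the male library (-2.23, -2.42 to -2.05), from 19 female and 18 male members. Within members, Gzmk also had rho of -0.30 and -0.36 with Gzmd and -0.35 and -0.36 with Gzme. Gzmm was under the limit of 20 CPM everywhere, so it could not be called. It had 2 UMIs in the members of each library, against 93 and 65 in comparison cells. Its ratios were -3.23 (-6.30 to -1.34) and -3.02 (-6.10 to -1.11).

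Among the granzyme-inhibiting serpins listed, Serpinb9b was higher in members. It is a relative of Serpinb9, which protects killer cells from their own granzyme B. Serpinb9b stood at 479 CPM in female members against 68.2 CPM in comparison cells (2.81) and 568 against 60.6 CPM in the male library (3.23). It was found in 31 female and 42 male members. Of 5 measured serpins of this kind it was the one called, and the list's medians were 0.49 and 0.66.

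**Figure D3:**
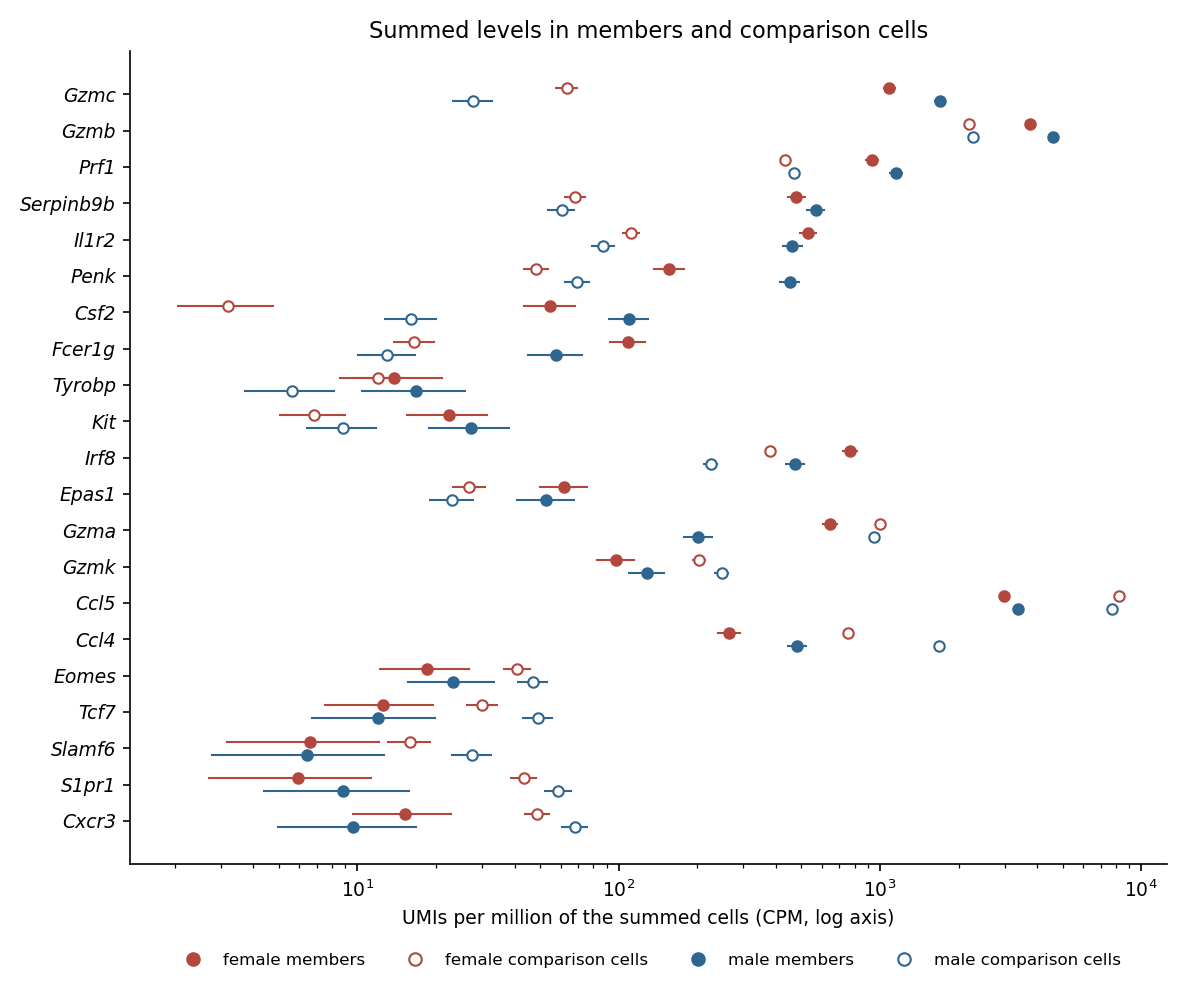
Levels of 21 genes in CPM of the summed cells (log axis) in members (filled) and comparison cells (open) of the female (red) and male (blue) libraries, with horizontal lines for the exact 95% Poisson interval (1 library per sex). Gzmc, Serpinb9b, Il1r2, Csf2 and Fcer1g lie to the right in members, while Ccl5, Ccl4, Tcf7, S1pr1 and Cxcr3 lie to the left.

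Among secreted and surface proteins, Il1r2, Serpine2, Penk, Csf2 and Kit were higher in members. Il1r2, a decoy receptor for interleukin 1, stood at 531 against 112 CPM in the female library (2.25, 2.11 to 2.39) and 462 against 87.0 CPM in the male library (2.41, 2.23 to 2.59), in 77 of 89 and 57 of 76 members. Serpine2, a secreted protease inhibitor and a serpin outside the list above, stood at 316 against 116 CPM and 525 against 106 CPM. Kit, the receptor for stem cell factor, stood at 22.4 against 6.81 CPM (1.72) and 27.3 against 8.82 CPM (1.63), in 17 and 18 members.

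The signals of Csf2 and Penk came from few cells. Csf2, the cytokine GM-CSF, stood at 54.7 against 3.20 CPM in the female library and 110 against 16.05 CPM in the male library, but in 13 and 5 members, with 38.6% and 53.3% of its UMIs in 1 cell. Penk, which encodes proenkephalin, stood at 156 against 48.5 CPM (1.69) and 452 against 69.4 CPM (2.70), with 40.5% and 22.7% in 1 cell. Without the cell with most Penk UMIs, the female ratio was 0.94, under the limit, and the male one 2.33.

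Irf8 and Epas1 were the transcription factors higher in members. Irf8 stood at 769 against 380 CPM in the female library (1.02, 0.92 to 1.12) and 474 against 225 CPM in the male library (1.08, 0.93 to 1.22), close to the 2-fold limit. Without barcodes holding markers of other cell types the female ratio of Irf8 was 0.93. Epas1, the hypoxia-inducible factor HIF-2 alpha, stood at 62.0 against 26.8 CPM (1.21) and 53.0 against 23.1 CPM (1.20), and at 0.93 and 1.17 without those barcodes. The call was kept under 13 of 16 alternative settings for Irf8 and under 11 for Epas1, and both lost it without their top member. Cd244a, the receptor 2B4, was higher (1.06 and 1.44), with 41 and 36 UMIs in members, and the call was kept under 12 of 16 alternative settings, not at the depth of members, with thinned cells, at 100 CPM or without its top member. The remaining genes called higher, some named after their values were seen, were Ccdc184, Gstm5, Gipc2, Tff1, Pxdc1, Upp1, Gstt1, Dscam, Gldc, Filip1, Bace2, Tmem120b, Myo10, AA467197, Nrgn, Prxl2a and the receptor segment Trav6-5.

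Genes of less differentiated and recirculating T cells were among those lower in members. S1pr1, the receptor that lets T cells leave tissue, stood at 5.94 CPM in female members against 43.4 CPM in comparison cells (-2.87, -4.01 to -1.93) and at 8.82 against 58.8 CPM in the male library (-2.74, -3.75 to -1.88). Tcf7, the factor TCF-1, stood at 12.5 against 30.0 CPM (-1.26) and 12.0 against 49.1 CPM (-2.03). Cxcr3, a chemokine receptor, had ratios of -1.68 and -2.82. Slamf6, a marker of progenitor cells, had ratios of -1.27 and -2.10, from 10 and 8 UMIs in members. It kept the call under 8 of the 16 alternative settings, and lost it at the depth of members and with thinned cells, among others. Of 13 measured naive, memory and progenitor genes these 4 were lower and none was higher in both libraries. The list's medians were -0.47 and -0.76. By itself the female library had 1 gene of this list higher, Ccr7, and the male library 0. A Ccr7 UMI was found in 36.0% of female members against 24.4% of comparison cells, and in 30.3% against 26.3% in the male library. With thinned cells these shares were 27.4% against 18.9%, and 21.8% against 24.1%. Il7r, the interleukin 7 receptor, stood at 189 against 158 CPM in the female library (0.25) and 138 against 205 CPM in the male library (-0.57).

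Ccl5 and Ccl4, chemokines that recruit other immune cells, were lower as well. Ccl5 stood at 2974 CPM in female members against 8194 CPM in comparison cells (-1.46, -1.51 to -1.42) and at 3365 against 7736 CPM in the male library (-1.20, -1.25 to -1.16). Ccl4 stood at 264 against 756 CPM (-1.52) and 481 against 1685 CPM (-1.81). Ccl5 was called under all 16 alternative settings, while Ccl4 lost the call at the depth of members and with no Havcr2 asked of comparison cells. Of 14 measured cytokines and chemokines, Csf2 was higher and Ccl4 and Ccl5 were lower, with medians of 0.22 and -0.27. Ifng, the cytokine interferon gamma, stood at 309 against 184 CPM in the female library (0.74) and 365 against 391 CPM in the male library (-0.10). Spp1, which encodes osteopontin, stood at 202 against 133 CPM (0.61) and 389 against 21.1 CPM (4.21), in 33 female and 31 male members.

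Most inhibitory receptors differed by less than 2-fold between members and comparison cells. The rule asked for Havcr2 in comparison cells alone, and 79 of 89 female and 67 of 76 male members also held a UMI of it. Pdcd1, the gene of PD-1, stood at 878 against 814 CPM in the female library (0.11) and 818 against 690 CPM in the male library (0.25). Lag3 stood at 898 against 799 CPM (0.17) and 1082 against 807 CPM (0.42). Tigit had ratios of -0.40 and -0.27 and Entpd1, the ectoenzyme CD39, 0.14 and 0.77. Of 12 measured inhibitory receptors, Cd244a was higher and Cd101 lower, with medians of 0.09 and 0.05, and Cd101 kept the call under 9 of the 16 settings. Tox, a factor of exhausted cells, stood at 58.0 against 80.8 CPM (-0.48) and 66.6 against 89.3 CPM (-0.42). Among 20 measured effector and exhaustion factors, Irf8 and Epas1 were higher and Irf4 and Eomes were lower, with medians of -0.17 and -0.20. Irf4, induced by receptor signalling, had ratios of -1.99 and -1.51, and Eomes -1.15 and -1.01, close to the limit and called under 9 of the 16 settings. The call of Irf4 was lost with thinned cells and at 100 CPM.

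The other lists held few or no called genes. Among 12 measured genes of activating adaptors and their signalling, Fcer1g alone was higher (medians -0.16 and -0.20), and among 8 natural killer type receptors Cd244a was higher (0.28 and 0.17). Of 8 residency genes, Itgb7, an integrin chain, was lower (-1.17 and -1.61; list medians -0.52 and -0.67). Of 11 genes induced by T cell receptor activation, Irf4 was lower (-0.61 and -0.48). None was called among 15 genes of the interleukin 2 and 15 receptors and their STAT5 targets (-0.26 and -0.35), 8 costimulatory receptors (0.11 and -0.04), 16 glycolysis and hypoxia genes (0.14 and 0.23), 7 type I interferon genes (-0.53 and -0.70), 10 S and G2/M genes (0.19 and 0.61) or 15 dissociation stress genes (-0.21 and -0.19). Il2ra, the high-affinity interleukin 2 receptor chain, stood at 124 against 72.6 CPM in the female library (0.77) and 85.8 against 80.2 CPM in the male library (0.10). Cd7, an early T cell surface protein in no list, had ratios of -3.11 and -2.12, and the chemokine receptor Ccr2 -1.63 and -1.36.

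The levels of several of these genes were not spread evenly over the range of the granzyme sum. In cells with at least 50 granzyme D to G UMIs, 42 female and 34 male, Gzmc stood at 1868 CPM (female) and 3218 CPM (male). In cells with 20 to 49 UMIs it stood at 285 and 362 CPM, and in cells with 1 to 4 UMIs, which are not members, at 383 and 282 CPM. Prf1 stood at 1235 and 1360 CPM at 50 UMIs or more and at 519 and 524 CPM at 1 to 4. Ccl5 stood at 3907 and 4925 CPM at 1 to 4 UMIs, against 8194 and 7736 CPM in the comparison cells. The comparison cells have none of these UMIs and were chosen for a Havcr2 UMI, which was not asked of the other ranges. Cd8a stayed between 848 and 1169 CPM in all 6 ranges in both libraries. Depth moved with the sum, and its part in these levels was not tested: the median was 17291 and 16822 UMIs at 50 or more, against 12100 and 9653.5 at 1 to 4.

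**Figure D4:**
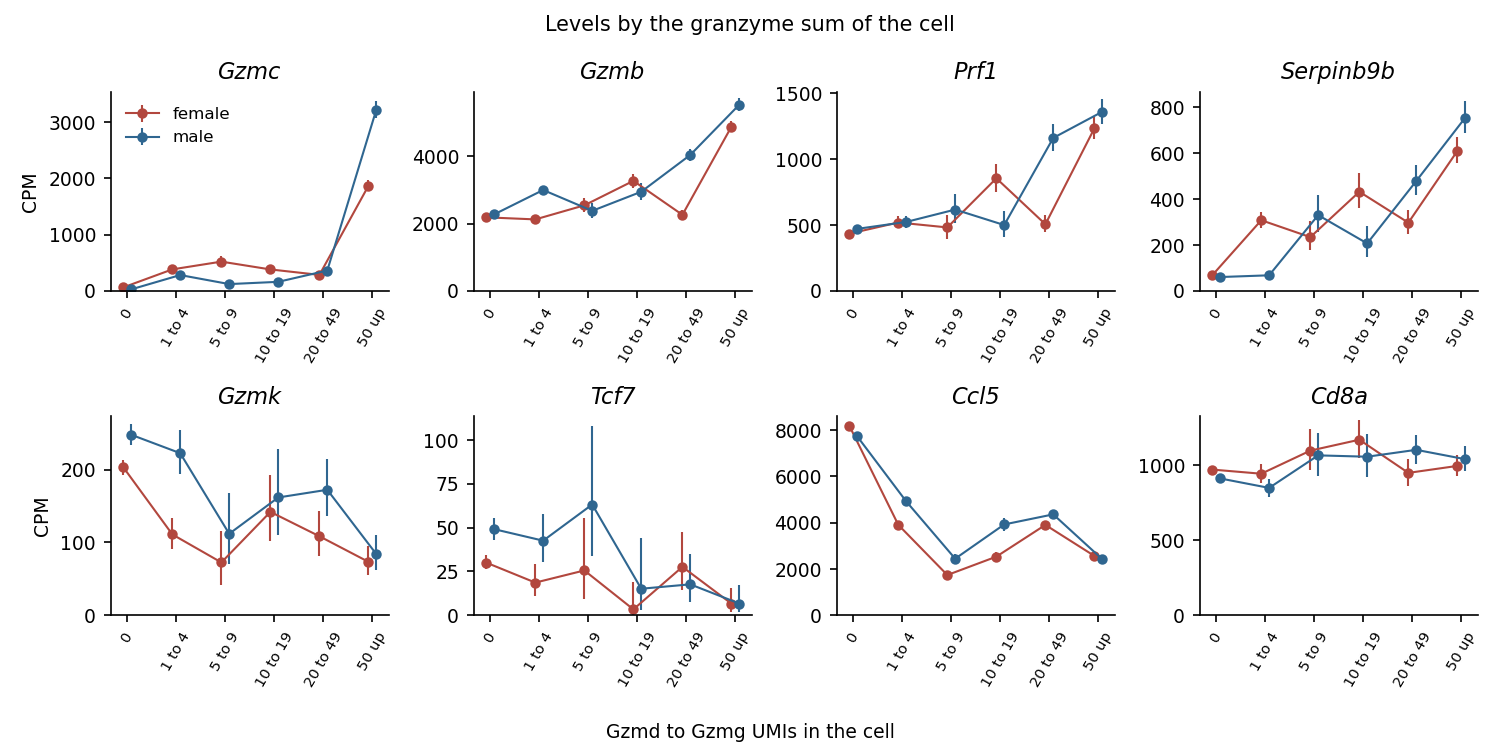
CPM of 8 genes (y axes, from 0) in CD8 cells grouped by their summed Gzmd to Gzmg UMIs (x axis), with points for the summed cells of the female (red) and male (blue) libraries and bars for exact 95% Poisson intervals; the group at 0 is the comparison cells. Gzmc is highest in the group with 50 or more UMIs, at 1868 CPM (female) and 3218 CPM (male), and Cd8a is level.

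Cycling cells, which the rule left out through Mki67, are cells of the same libraries that took no part in the calls above. Among CD8 barcodes with an Mki67 UMI and otherwise the same filters, 42 female and 34 male cells had at least 10 granzyme UMIs, and 203 and 131 had none with Havcr2 present. Of the 29 genes higher in members, 27 of the 27 with at least 20 UMIs pointed the same way in female cells and 28 of 29 did so in male cells. Past the 2-fold limit were 14 and 13 of them, where 1.04% and 0.758% of all genes were. Of the 46 lower genes, 37 of 46 and 41 of 44 pointed the same way, and 5 and 12 passed the limit, where 0.857% and 1.53% of all genes did. Over all genes, 2333 of 5948 female and 2227 of 5940 male ones lay above 0. The cells with granzymes were deeper here too, with medians of 25936 and 27816 UMIs, against 19901 and 16595.

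In cycling cells with granzymes, Gzmc stood at 1344 CPM (female) and 1385 CPM (male), against 33.1 and 17.9 CPM in those without. Fcer1g stood at 87.2 and 64.4 CPM, against 13.1 and 9.61 CPM. Il1r2 stood at 357 and 380 CPM, against 172 and 128 CPM, and Serpinb9b at 351 and 410 CPM, against 111 and 90.4 CPM. Upp1, uridine phosphorylase, stood at 49.9 and 35.0 CPM, against 5.24 and 5.68 CPM. Prf1 had ratios of 0.51 and 0.82. Ccl4 pointed the other way, with ratios of 1.24 and 0.37, and Ccl5 had a ratio of -0.53 in both.

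No receptor segment or pair held most of the members. A Trbv segment with at least 2 UMIs was assigned in 89 of 89 female and 71 of 76 male members, to 17 and 13 segments. Trbv12-2 was found in 13.5% of female members (7.17 to 22.4), against 12.4% of comparison cells, and in 31.0% of male members (20.5 to 43.1), against 16.8%. Where a Trbv and a Trav segment were both assigned, 69 female members fell into 46 pairs and 53 male members into 38. The most frequent pair, Trbv1 with Trav6-4, was found in 7 female members (10.1%), and the most frequent male pair in 4 (7.55%). In comparison cells the most frequent pair was found in 58 of 475 female (12.2%) and 29 of 314 male cells (9.24%). The segments Trav2, Trbv12-1, Trbv14 and Trbv15 were among the genes called lower in members, and Trav2 kept the call under all 16 alternative settings. Segments are not full receptor sequences, so a shared pair is not proof of a clone.

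Between the sexes, 66 of 5650 genes measured in members (1.17%) passed 1.5-fold upward in female cells, with an interval bound past a log2 of 0.32, and 90 (1.59%) were lower. In comparison cells the same genes gave 40 (0.708%) and 64 (1.13%), and 56 of the 156 sex calls in members were also made there in the same direction. The sum over members rests on few cells, and 1 library per sex cannot separate sex from mouse, tumour or library. Without the male member with collagen UMIs, 55 genes were lower in female members rather than 90. Sparc, Inhba, Crabp1, Col1a1 and Rarres2, the 5 genes ranked lowest, were at 0 or 1 UMI in the other male members.

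Xcl1, a chemokine for cross-presenting dendritic cells, stood at 63.3 CPM in female and 7.22 CPM in male members (log2 3.13, 2.15 to 4.30), with 106 and 108 CPM in comparison cells. It was found in 11 female and 4 male members. Gzma stood at 643 CPM in female and 201 CPM in male members (1.68), with 1002 and 946 CPM in comparison cells. It was carried by 21.3% of female and 23.7% of male members, with 26.7% and 35.9% of its UMIs in 1 cell. Ccr7, the lymph node homing receptor, stood at 371 CPM in female and 187 CPM in male members (0.99), with 168 and 220 CPM in comparison cells. Slc30a1, Pou2f2 and Slc25a33 had ratios of 2.45, 1.72 and 1.60.

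In the other direction, Gzmc had a ratio of -0.64 in members and Penk of -1.53. In comparison cells Gzmc was higher in the female library, with a ratio of 1.19 (0.92 to 1.48). Some immediate early genes were also lower in female members, and others were not. Nr4a1 stood at 69.2 CPM in female and 174 CPM in male members (-1.33), Egr1 at 42.9 and 123 CPM (-1.52) and Fos at 74.5 and 174 CPM (-1.22). In comparison cells the same genes had ratios of -0.76, -0.75 and -0.70. Nr4a3 stood at 181 CPM in female and 120 CPM in male members (0.60, 0.30 to 0.89), and Nr4a3, Nr4a2, Ier2 and Atf3 were not called. Of 10 measured genes induced by T cell receptor activation, Nr4a1 and Egr1 were lower in female members and none was higher, with a median of -0.03. Of the 15 dissociation stress genes, Fos, Jun, Hspa1b, Dnajb1 and Zfp36 were lower in female members and none was higher. Over all genes measured in members 1.59% were lower. The median of the 15 stress genes was -0.38 in members and -0.43 in comparison cells, so the shift was not particular to members. These genes respond to tissue digestion as well as to receptor signals, and their part in the sex ratios was not tested. Irf8 was higher in female members by 0.70 and in female comparison cells by 0.76, and Ccl4 had ratios of -0.86 and -1.16. Fcer1g had a ratio of 0.91, which was -0.69 once barcodes with markers of other cell types were left out.

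**Figure D5:**
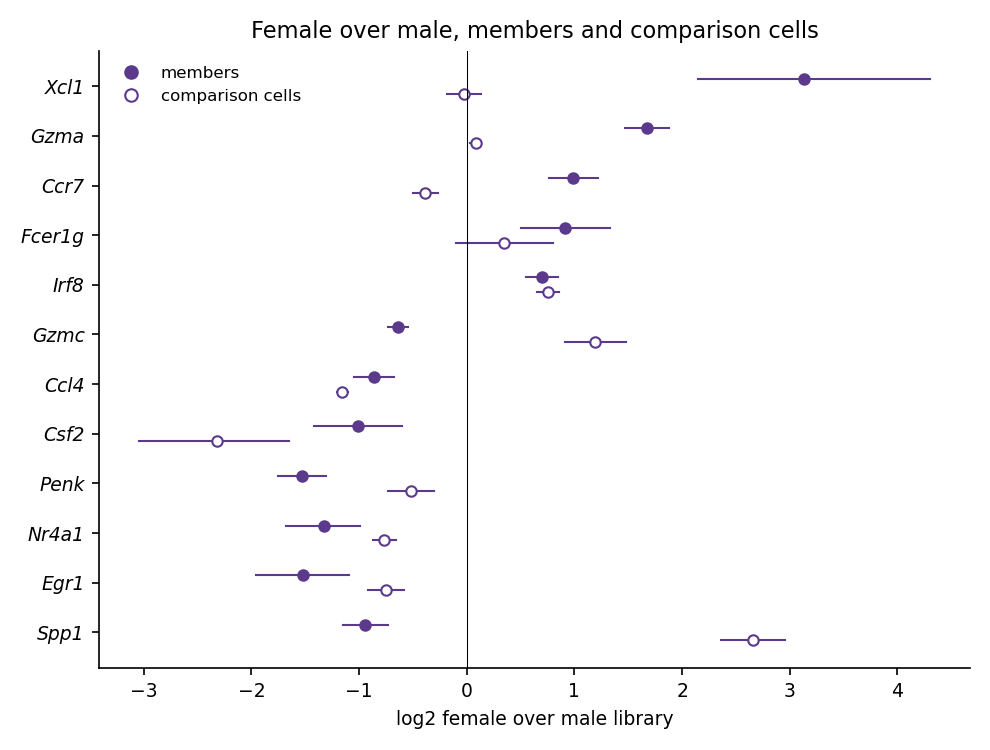
Log2 ratio of the female over the male library (x axis) for 12 genes in members (filled) and comparison cells (open), with lines for exact 95% intervals of the ratio of counts (1 library per sex). Xcl1 lies at 3.13 in members and -0.03 in comparison cells, while Irf8 lies at 0.70 and 0.76.

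Within the members, cells poor in Gzmf (under 10% of the 4 granzymes; 25 female, 13 male) were set against cells rich in it (over 90%; 25 and 21). Of 5791 genes, 7 (0.121%) were higher and 5 (0.0863%) lower at least 2-fold in both libraries, 4 of the 12 being Trbv segments. Ccr7 stood at 728 CPM in Gzmf-poor against 211 CPM in Gzmf-rich female cells (1.79, 1.45 to 2.14) and at 459 against 116 CPM in male cells (1.98, 1.46 to 2.52). Gzmb stood at 3169 against 3954 CPM (-0.32) and 3720 against 5422 CPM (-0.54), and Gzmc had ratios of 0.29 and -0.06.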

How the data were processed

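Droplet single-cell RNA was measured in 1 female and 1 male library of sorted cells from MB49 tumours. The deposited files hold UMI counts per gene and barcode, which per the file headers came from the authors' run of Cell Ranger 7.0.1. The submitters' processing notes name GRCm38 and Seurat 5, with no role stated. The members, gene lists and comparison were chosen with earlier results of these data known. UMIs were summed per library over members and over comparison cells. Log2 ratios of CPM carry exact 95% intervals for a ratio of Poisson counts, and shares carry Clopper-Pearson intervals. A count of 0 was set to 3 counts in ratios. Measured genes had 20 CPM or more in 1 of the 4 sums and 20 UMIs or more over them. Named were the genes of the rule and its markers, granzymes, up to 4 per list with the largest ratios, and the 12 highest and 12 lowest calls, each with at least 50 UMIs, plus the 5 highest and 5 lowest between the sexes. The ranked groups exclude receptor segments, sex genes, predicted genes and those of ribosomal proteins and mitochondria. List members beside these are given as values. Calls with thinned cells came from 1 draw, with seed 1 for members and a different seed for comparison cells. Thinned shares of cells with a gene are not whole counts of cells from that draw. They leave out cells under 5055 UMIs, which were 0 female and 5 male members and 54 female and 70 male comparison cells. For the self-test, the steps were run on simulated counts. GENCODE M21 gave positions for 99.6% of 32285 gene IDs, and promoters came from RefSeq. Python 3.11.15, numpy 2.4.6, scipy 1.17.1, pandas 2.3.3, Biopython 1.88, matplotlib 3.10.9 and edgeR 4.0.16 (for TMM factors only) were used. Alternatives changed scaling, thinning, filters, thresholds of the rule and the comparison cells. The median depth of members was 16609 UMIs (female) and 15434.5 (male), and genes near the limit of 20 CPM rest on few UMIs in members.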

Additional observations from a re-analysis of the deposited data

Results flagged for a closer look

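For 10 genes the ratio of members over comparison cells passed the 2-fold limit upward in 1 library and downward in the other. The difference between the libraries was not tested, and where a group held no UMI the ratio is computed against 3 counts. Receptor segments make up 5 of them. Trbv23 had log2 ratios of -1.47 (female) and 3.69 (male), from 0 and 29 UMIs in members. Trbv31 had 1.51 and -4.02 (-9.35 to -1.49, counting error), from 91 UMIs and 1 UMI. Trav6-4 had 2.12 and -2.84, from 74 and 0 UMIs, and Trav7-3 had 1.12 and -1.54, from 54 and 0 UMIs. Trav7-4 had -1.69 and 2.06, from 71 and 26 UMIs. The female UMIs of Trav6-4 lay in 10 cells, and the male UMIs of Trbv23 in 1 cell.

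The other 5 were led by the male member with collagen UMIs. Crabp1 had log2 ratios of -1.87 (female) and 4.26 (male), Col12a1 -1.02 and 3.96, and Ccn1 -1.92 and 2.79. All male member UMIs of these genes, 177, 35 and 26, were in 1 cell, and female members had 0. Hmox1 had -2.43 and 2.10, with 46 UMIs in male members, of which 18 remained without that cell. Ctsl had -1.67 and 1.53, with 60 UMIs in male members, of which 14 remained without it.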

How the results depend on the processing

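No paired analysis was possible because no result comes from a test: each sex is 1 library, and the contrast present in both libraries is the one that chose the members, so none was run on it. Of 16 alternatives, 2 were chosen after seeing the data: dropping, for each gene, the member with most of its UMIs, and dropping the male member with collagen. Of the 29 genes higher in members (46 lower), 7 (4) were called under all 16. The count of higher genes was 44 with no filter on low genes, 12 at 100 CPM or more and 59 with no Havcr2 UMI asked of comparison cells. Lower genes numbered 77 with equal weight per cell, 25 with thinned cells, 11 at 100 CPM, 143 with no Havcr2 asked and 106 with the top cell of each gene dropped, which lowers members by construction. Higher genes between female and male members numbered 23 at 100 CPM (66 in the report). Lower ones, 90 in the report, numbered 49 with thinned cells, 189 with no filter, 30 at 100 CPM, 49 at 20 granzyme UMIs, 56 without barcodes holding markers of other cells, 44 with top cells dropped and 55 without the collagen cell. The female share of members among CD8 barcodes was 4.23% with thinned cells, 4.30% at 20 granzyme UMIs and 4.10% at 20000 UMIs or fewer, and the male share 3.97% and 4.003% under the last 2 settings.

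The female over male ratio of Fcer1g changed sign (-0.69 without barcodes holding markers of other cells), and the cause was not tested. For 2 genes the sign came from setting 0 female UMIs to 3 counts against 1 male UMI, so no change of direction was measured: Inhba (1.37 at 20 granzyme UMIs, 1.45 without those barcodes, 1.30 with the top cell dropped) and Rarres2 (1.41 at 20000 UMIs, 1.45 and 1.30). TMM scaling gave 31 higher and 37 lower genes, of which 29 and 37 were among those of the report. Few UMIs limit the genes near 20 CPM, and spread between mice is not covered by any interval.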
